A study of Rattus norvegicus with 24 samples.

Results

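Messenger RNA in the liver of fed rats was compared with messenger RNA in their interscapular brown adipose tissue (BAT). The comparison was chosen by the arrays' titles and takes 8 of the 24 arrays of the study, 4 of fed liver and 4 of fed BAT. The study measured 3 tissues of fed and fasted rats on Affymetrix rat expression arrays, and its other arrays are fasted liver, fasted BAT and white adipose tissue (WAT) from around the kidney. All animals were male rats of the Wistar strain, labelled as 8 weeks old, with no genetic change given. They were 7 weeks old at the start, and for 7 days food was offered only from hour 10 to hour 16. On day 8 the fed rats received food again in that window, and the tissues were taken at hour 16. Both tissues therefore come from animals in the same meal-trained, freshly fed state. The fed animals are numbered 1, 2, 4 and 5, and a number shared by a liver and a BAT array is read as the same rat. Fasted liver and fasted BAT of 4 other rats, 24 h without food, are used near the end to see whether the tissue difference held there.

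The liver makes most plasma proteins, bile acids, urea and glucose for the rest of the body, and after a meal it turns carbohydrate into fatty acids that leave it in lipoproteins. Brown fat burns fatty acids in mitochondria that are uncoupled by UCP1, so that the energy of oxidation is released as heat, and it keeps its own triglyceride stores. Both tissues thus make and oxidise fatty acids, which raises the question of which genes of these pathways they use in common and which differ.

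Signals are array intensities scaled to a common level, and differences are given as log2(signal + 1.9) of liver minus BAT, so that a positive value means higher in liver. Genes are called at an adjusted p under 0.05 from limma, which fits linear models across all genes. Of 10448 genes tested, 6765 were called (64.7%), 2550 higher in liver (24.4%) and 4215 lower in liver (40.3%). At least 4-fold differences were called for 863 genes higher in liver (8.26%) and 922 lower in liver (8.82%). The arrays of the tissues did not overlap at 60.1% of genes (22.8% higher and 37.3% lower in liver), so a single gene that differs is the usual case here. The median difference of all genes tested was -0.26 on the log2 scale; with quantile normalization it was -0.13 and with the arrays centred on their medians 0.07. With median centring the split was 3428 higher and 2811 lower in liver (54.9% of calls higher, against 37.7%), so the balance of the calls depends on the scaling. Replicate arrays correlated across probe sets at r of 0.936 to 0.949 in liver and 0.924 to 0.945 in BAT, and liver with BAT at 0.755 to 0.787. The 2% trimmed mean before scaling ran from 93.71 to 146.7 in liver and from 93.35 to 126.1 in BAT. No scan day held both tissues, so tissue and scan day cannot be told apart. The BAT array of animal 5 stood apart from the other 3 in its skeletal muscle genes, as described with the cell type markers. In whole tissue, fewer cells of a type and less RNA per cell cannot be told apart.

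The 10 largest differences in favour of liver ran from 10.06 to 10.94 on the log2 scale and belonged to Apob, Serpinc1, Cyp2d2, Fgb, Cyp2c22, Crp, Bhmt2, Apoc2, Fga and Cyp2a2. Apob, the structural protein of lipoproteins released by the liver, had signals of 8101, 9304, 6967 and 8860 in the livers of animals 1, 2, 4 and 5, against 1.96, 1.93, 1.93 and 3.57 in their BAT. All 4 BAT values lay at the bottom of the array's range. The difference was 10.94 ± 0.16 (SE; limma adjusted p = 8.51e-13). Fgb, which encodes the beta chain of the clotting protein fibrinogen, had 8651, 9781, 7290 and 10469 in liver, against 6.42, 6.41, 1.22 and 1.64 in BAT. Fga, the alpha chain, had 8085, 9172, 7212 and 9579 in liver, against 16.2, 1.35, 6.64 and 5.63 in BAT. Both chains were on in every liver and near the floor in every BAT. Serpinc1 encodes antithrombin, a brake on clotting, and had 5956 to 8513 in liver, against 1.02 to 5.79 in BAT. Cyp2d2, Cyp2c22 and Cyp2a2 are cytochrome P450 genes; Cyp2d2 had 6567 to 7750 in liver, against 1.51 to 4.37 in BAT. P450 genes come in families of close sequence, and how far the probe sets tell members apart was not tested. Crp, an acute-phase protein, had 5593 to 6246 in liver, against 1.43 to 2.68 in BAT, and Bhmt2, a methyltransferase of homocysteine metabolism, had 4424 to 5525, against 0.62 to 7.38. The arrays give no detection call, so a BAT signal of a few units marks a low value and not a measured amount. For this reason the sizes depend on the added constant: with a pseudocount of 16 the same 10 genes stood at 7.70 to 8.83, and with none at 10.63 to 11.84.

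**Figure D1:**
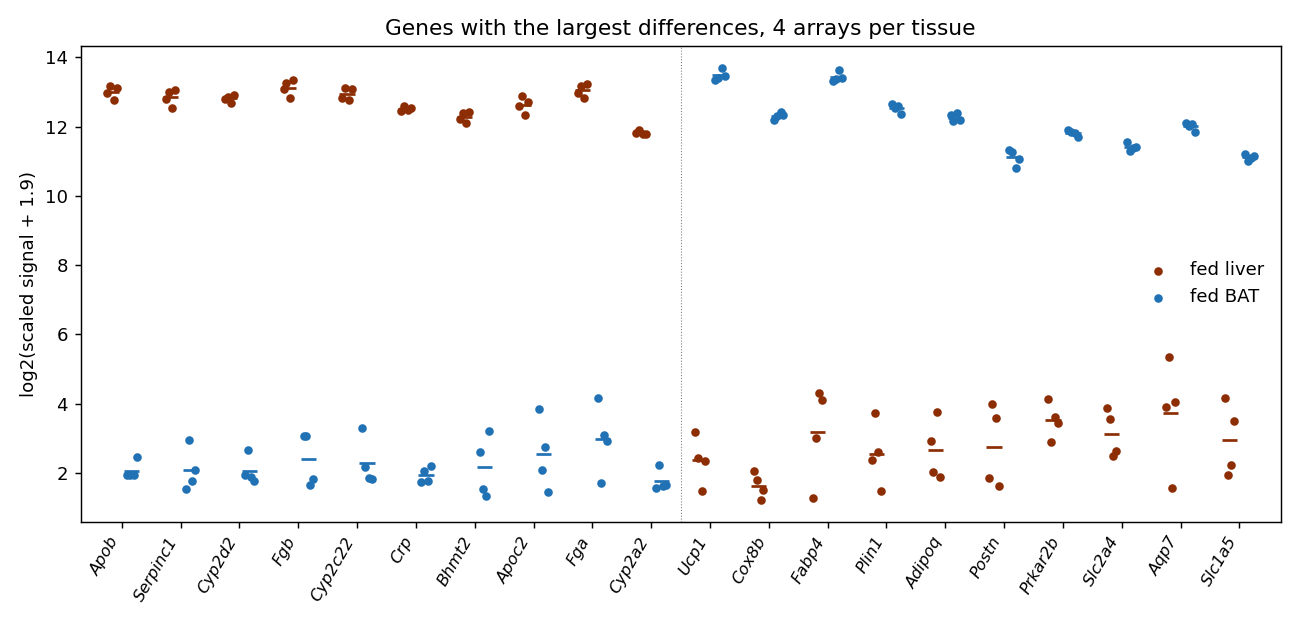
Signals of the 10 genes with the largest differences in each direction, as log2(scaled signal + 1.9), with 1 point per array (4 of fed liver, left of each pair, and 4 of fed BAT, right of each pair) and a bar at the mean. The 10 genes left of the dotted line are high in liver and low in BAT, the 10 right of it are low in liver and high in BAT, and no array of one tissue reaches the other at any of the 20.

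The 10 largest differences in favour of BAT ran from -11.12 to -8.15 and belonged to Ucp1, Cox8b, Fabp4, Plin1, Adipoq, Postn, Prkar2b, Slc2a4, Aqp7 and Slc1a5. Ucp1, whose protein uncouples the mitochondria of brown fat, had signals of 7.13, 3.51, 0.896 and 3.2 in liver, against 10446, 10740, 13370 and 11295 in BAT. Its difference was -11.12 ± 0.28 (limma adjusted p = 1.94e-11). Cox8b, a subunit of cytochrome oxidase known from heart, muscle and brown fat, had 2.22, 1.54, 0.426 and 0.915 in liver, against 4637, 5048, 5536 and 5165 in BAT. Fabp4, the fatty acid binding protein of adipocytes, had 0.543, 6.19, 17.8 and 15.2 in liver, against 10248, 10650, 12693 and 10784 in BAT. All 4 livers lay far below every BAT array for these 3 genes. Plin1, the coat protein of the adipocyte lipid droplet, had 0.866 to 11.5 in liver, against 5290 to 6435 in BAT. Adipoq, the gene of the hormone adiponectin, had 1.8 to 11.6 in liver, against 4557 to 5371 in BAT. Prkar2b is a regulatory subunit of protein kinase A, which carries the signal of noradrenaline in fat, and had 5.47 to 15.5 in liver, against 3349 to 3829 in BAT. Aqp7 lets glycerol out of adipocytes and had 1.08 to 38.9 in liver, against 3651 to 4420 in BAT. Slc1a5, a transporter of glutamine, had 1.91 to 16.2 in liver, against 2072 to 2349 in BAT, and Postn, a matrix protein of fibroblasts, had 1.17 to 14, against 1775 to 2555. With a pseudocount of 16 the 10 differences ran from -9.19 to -6.60, and with none from -12.21 to -8.59, where Cox8b (-12.21) stood beyond Ucp1 (-11.94). White fat, given here only as a level and with no test, separates these genes. The mean signal in fed WAT was 11.5 for Ucp1 and 4.71 for Cox8b, but 8079 for Fabp4, 4724 for Plin1, 6188 for Adipoq and 3663 for Aqp7. Of the 922 genes called at least 4-fold lower in liver, 558 (60.5%) had a mean in WAT within 2-fold of that in BAT, and 114 (12.4%) had a mean in WAT at least 4-fold below BAT.

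Promoter sequence from RefSeq (build GRCr8, 250 bases before to 50 bases after the start of the gene) is shown for genes at the extremes of the comparison, because the liver genes of plasma proteins are a textbook case of control by the factor HNF1. The letters GTTAAT, the core of an arm of its palindromic site, were searched on both strands and stand in capitals where found (ATTAAC where the match is on the other strand); a match is a description of the letters and not a site of binding. Fga, Fgb and Cyp2d2 are the 3 of the 10 largest liver genes with a match, among 7 whose promoter is given. Alb and Fabp1, the main plasma protein and the fatty acid binding protein of liver, are shown beside them, and Ucp1, which has no match in this window, stands for the 10 largest BAT genes, of which none of 6 had one.
Fga, chr2:170671919-170672218, plus strand: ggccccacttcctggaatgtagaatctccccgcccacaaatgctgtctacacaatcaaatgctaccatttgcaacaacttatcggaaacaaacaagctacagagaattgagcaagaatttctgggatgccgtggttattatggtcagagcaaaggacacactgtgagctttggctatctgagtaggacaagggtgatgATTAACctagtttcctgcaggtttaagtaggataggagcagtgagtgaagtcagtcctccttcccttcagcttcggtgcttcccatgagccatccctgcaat
Fgb, chr2:170700826-170701125, minus strand: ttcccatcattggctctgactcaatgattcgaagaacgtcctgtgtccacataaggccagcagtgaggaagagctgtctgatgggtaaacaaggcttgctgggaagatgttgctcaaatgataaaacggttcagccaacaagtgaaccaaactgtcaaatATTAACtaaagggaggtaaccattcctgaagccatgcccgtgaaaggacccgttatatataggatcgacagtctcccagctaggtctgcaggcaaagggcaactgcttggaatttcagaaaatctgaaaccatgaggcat
Cyp2d2, chr7:115819232-115819531, minus strand: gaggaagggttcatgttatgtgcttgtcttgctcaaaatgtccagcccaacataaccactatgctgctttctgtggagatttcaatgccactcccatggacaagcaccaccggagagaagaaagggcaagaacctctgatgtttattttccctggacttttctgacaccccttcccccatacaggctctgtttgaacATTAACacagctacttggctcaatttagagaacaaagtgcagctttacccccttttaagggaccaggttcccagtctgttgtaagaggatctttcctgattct
Alb, chr14:17906930-17907229, minus strand: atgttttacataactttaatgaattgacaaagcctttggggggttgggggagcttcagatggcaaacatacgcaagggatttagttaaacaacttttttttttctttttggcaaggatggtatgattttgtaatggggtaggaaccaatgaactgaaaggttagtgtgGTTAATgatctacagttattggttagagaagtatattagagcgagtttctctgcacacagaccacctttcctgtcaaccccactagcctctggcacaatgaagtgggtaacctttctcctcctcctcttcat
Fabp1, chr4:104749090-104749389, plus strand: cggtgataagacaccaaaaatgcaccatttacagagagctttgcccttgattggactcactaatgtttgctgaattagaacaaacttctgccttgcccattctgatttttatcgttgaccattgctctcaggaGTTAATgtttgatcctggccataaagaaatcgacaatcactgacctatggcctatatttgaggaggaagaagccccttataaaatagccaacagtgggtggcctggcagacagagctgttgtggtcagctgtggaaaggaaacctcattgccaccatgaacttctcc
Ucp1, chr19:41721372-41721671, minus strand: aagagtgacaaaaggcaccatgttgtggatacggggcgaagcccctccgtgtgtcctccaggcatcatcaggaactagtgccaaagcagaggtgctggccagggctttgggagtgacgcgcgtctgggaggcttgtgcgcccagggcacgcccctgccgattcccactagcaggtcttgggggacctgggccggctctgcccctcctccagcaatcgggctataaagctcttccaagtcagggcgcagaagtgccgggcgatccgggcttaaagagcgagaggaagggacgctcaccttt
Counted from the start of the gene, the match begins at base -52 in Fga, -90 in Fgb, -53 in Cyp2d2, -82 in Alb and -117 in Fabp1. GTTAAT stood on either strand in 7.37% of all 27457 promoters given by RefSeq and in 4.34% of the 8736 that belong to tested genes. Among genes called at least 4-fold higher in liver the share was 10.7% (75 of 702), and among those called at least 4-fold lower in liver 2.23% (16 of 717). Of the plasma protein list, 6 of 17 promoters held it (35.3%). The HNF4 motif CAAAGTCCA was found in 1.71% of the 702 promoters, 0.139% of the 717 and 0.343% of the tested genes. The CCAAT box, whose letters can overlap the end of the HNF4 motif, was found in 41.6%, 33.8% and 37.8% of the same sets. ERR, a receptor family of oxidative genes, has the motif TCAAGGTCA, which stood in none of the 702, in 0.418% of the 717 and in 0.229% of the tested genes. These shares are given with no test.

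The functions of hepatocytes stood out list by list. The counts of each list are to be read beside the shares of all genes tested, 24.4% called higher in liver and 40.3% lower. All 22 tested genes for plasma proteins were called higher in liver, with a median difference of 8.69 against -0.26 over all genes. Serpina1, which encodes the protease inhibitor alpha-1-antitrypsin, had 8857 to 11188 in liver, against 17.2 to 42.6 in BAT. Alb, serum albumin, had 11597, 12017, 9248 and 12795 in liver, against 1987, 2831, 2657 and 2356 in BAT, where it also had a clear signal (difference 2.22 ± 0.13; limma adjusted p = 2.4e-08). Its mean in WAT was 1925. The highest deposited signals of any probe set were 10073 to 11294 on the liver arrays and 11861 to 13560 on the BAT arrays, and whether the brightest probe sets were saturated was not tested.

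Of the 13 tested genes of bile acid synthesis and transport, 12 were called higher in liver and none lower (1 lower with the tissues paired by animal number), with a median of 7.00. Slc10a1, the carrier that takes bile acids back into hepatocytes, had 4639 to 5393 in liver, against 0.746 to 15.3 in BAT. Baat, which couples bile acids to glycine and taurine, had 4407 to 5846 in liver, against 1.4 to 9.42 in BAT. Cyp7a1, the rate-limiting enzyme of bile acid synthesis, varied between the livers, with 751, 3310, 2152 and 2404, against 2.24, 5.92, 3.25 and 2.3 in BAT. Its lowest liver still lay far above every BAT array. All 17 tested genes of the urea cycle and amino acid breakdown were called higher in liver, with a median of 5.55. Among them Otc, ornithine transcarbamylase of the urea cycle, had 3434 to 3835 in liver, against 0.937 to 5.8 in BAT. Ass1, argininosuccinate synthase, had 6839 to 8246, against 10.8 to 16.9. Hpd and Tdo2 break down tyrosine and tryptophan; Tdo2 had 4418 to 6162 in liver, against 6.94 to 9.2 in BAT. Of 19 tested genes of xenobiotic metabolism, 17 were called higher in liver and none lower (median 4.83); Cyp1a2 had 5179 to 7280 in liver, against 3.6 to 12.5 in BAT.

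Of 7 tested genes of gluconeogenesis, 4 were called higher in liver and 3 lower, beside 24.4% and 40.3% of all genes tested. G6pc1, also of this list, was not among the genes named on the array. With so few genes, no lean of the pathway as a whole is read from these counts. Fbp1, fructose bisphosphatase, had 4946 to 5703 in liver, against 1.5 to 11.8 in BAT, and Slc37a4, which carries glucose 6-phosphate into the endoplasmic reticulum, had 1802 to 2204, against 327 to 458. Pck1, the cytosolic enzyme that makes phosphoenolpyruvate, was close between the tissues, with 2155, 1992, 2663 and 2463 in liver, against 1640, 1460, 1204 and 1174 in BAT (0.76 ± 0.13; limma adjusted p = 0.000334). In fat Pck1 serves the making of glycerol for triglyceride. Pc, pyruvate carboxylase, ran the other way, with 386, 576, 822 and 641 in liver, against 1181, 2428, 1594 and 2698 in BAT (-1.68 ± 0.27; limma adjusted p = 0.000181). The mitochondrial Pck2 and the cytosolic Mdh1 were also called lower in liver, by -1.26 and -0.95.

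Among transcription factors known from liver, 12 of 16 tested genes were called higher in liver and 2 lower. Hnf4a, a nuclear receptor of hepatocyte identity, had 2681, 2939, 2600 and 2618 in liver, against 1.44, 0.634, 8.34 and 5.25 in BAT. Onecut1, Onecut2 and Foxa2 were called higher in liver by 8.30, 7.98 and 6.88. The 2 that were lower in liver were Cebpa and Ppara. Cebpa, a factor of both hepatocytes and adipocytes, had 1069, 1320, 1575 and 1244 in liver, against 1713, 2529, 1630 and 2025 in BAT (-0.59 ± 0.16; limma adjusted p = 0.00547), and its call ended under 3 of 25 other settings. The probe set of Ppara was dim in both tissues, with 2.58 to 30.4 in liver, against 25.8 to 57.2 in BAT, and its arrays overlapped. Its call (-1.36, limma adjusted p = 0.0463) ended under 17 of 25 settings.

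BAT was marked by thermogenic and adipocyte genes. Of 17 tested genes of thermogenesis and brown adipocyte identity, 15 were called lower in liver and 2 higher, with a median of -3.64. Adrb3, the beta-3 adrenergic receptor, had 3.5 to 17.7 in liver, against 1507 to 2038 in BAT. Ppargc1a, a coactivator of mitochondrial genes, had 6.1 to 32.3 in liver, against 155 to 173 in BAT, and Dio2, which activates thyroid hormone, had 0.621 to 10.5, against 96.2 to 153. The exceptions were Slc27a2, a very-long-chain acyl-CoA synthetase also of liver peroxisomes, with 5123 to 5333 in liver, against 673 to 967 in BAT, and Fgf21, a hormone made by both tissues. Fgf21 had 99.6, 99.9, 49.6 and 50.4 in liver, against 20.4, 37.9, 32 and 11.5 in BAT (1.53 ± 0.37; limma adjusted p = 0.00349). Of 20 tested genes of adipocyte lipid storage and hormones, 19 were called lower in liver and 1 higher (median -5.97). Lipe, hormone-sensitive lipase, had 27.4 to 44.6 in liver, against 2642 to 2966 in BAT. Car3, carbonic anhydrase 3, was the exception and was bright in both tissues, with 8446, 9205, 7275 and 10553 in liver, against 6354, 7462, 6462 and 7842 in BAT; the arrays overlapped, and its call (0.33, limma adjusted p = 0.0286) ended under 11 of 25 settings.

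Of 14 tested transcription factors of fat, 13 were called lower in liver and 1 higher (median -2.87). Pparg, the master factor of fat cells, had 40.8, 31.9, 23.7 and 27 in liver, against 1787, 1587, 1752 and 1762 in BAT (-5.74 ± 0.16; limma adjusted p = 4.04e-11). Ebf1, Prdm16 and Ebf2 were called lower in liver by -5.31, -4.82 and -3.64; Prdm16, a factor of brown fat identity, had 0.196 to 6.37 in liver, against 92.5 to 138 in BAT, with a mean of 13.7 in WAT. Klf15, a factor of amino acid and glucose metabolism in liver, muscle and fat, was the exception, with 854, 954, 1705 and 959 in liver, against 61.6, 106, 43.1 and 145 in BAT (3.71 ± 0.34; limma adjusted p = 1.24e-06). Of its 3 probe sets, 2 had this direction.

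**Figure D2:**
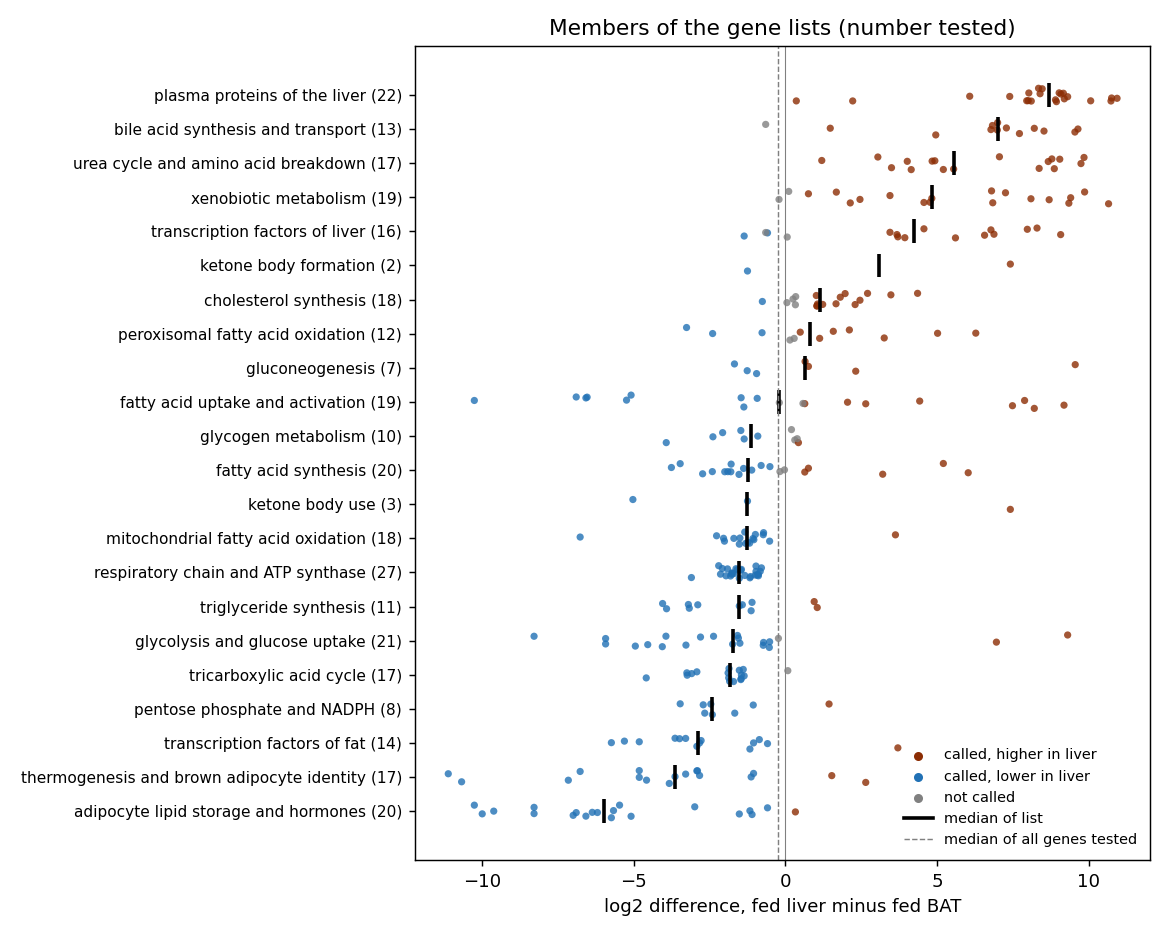
Log2 differences (fed liver minus fed BAT) of the tested members of 22 gene lists, 1 point per gene, coloured by whether limma called it higher in liver, lower in liver or neither, with a bar at each list's median and a dashed line at the median of all genes tested (-0.26). Plasma protein genes lie highest (median 8.69) and adipocyte genes lowest (median -5.97), while cholesterol synthesis (1.15) and peroxisomal oxidation (0.81) lie above 0 and mitochondrial oxidation (-1.27) and the respiratory chain (-1.52) below it.

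Partner genes, which serve a like step in different tissues, were compared as a list. Of 38 tested, 10 were called higher in liver (26.3%, against 24.4% of all genes) and 27 lower (71.1%, against 40.3%), and in some pairs the partners lay on opposite sides. For glucose entry, Slc2a2, the high-capacity glucose transporter GLUT2, had 2866, 4501, 3063 and 3691 in liver, against 3.33, 10.7, 1.46 and 2.13 in BAT. Slc2a4, the insulin-responsive transporter GLUT4, had 12.8, 9.76, 3.7 and 4.3 in liver, against 3025, 2528, 2690 and 2744 in BAT. The carnitine gate of mitochondrial fatty acid entry was also split. Cpt1a, the liver form, had 855, 690, 438 and 467 in liver, against 53.4, 47.3, 44.3 and 39.9 in BAT (3.63 ± 0.21; limma adjusted p = 2.24e-08). Cpt1b, the muscle and brown fat form, had 54.8, 36.1, 53.8 and 40.4 in liver, against 5389, 5268, 5114 and 5012 in BAT (-6.77 ± 0.14; limma adjusted p = 4.95e-12). No array of one tissue reached the other for either gene.

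Fatty acid binding inside the cell rested on Fabp1 in liver (9668 to 14254, against 8.84 to 29.4 in BAT) and on Fabp4 and Fabp3 in BAT; Fabp3, the heart form, had 30.9 to 55 in liver, against 3149 to 6383 in BAT. Its mean in WAT was 42.5, whereas that of Fabp4 was 8079. Slc27a5, which activates bile acids and fatty acids, had 4390 to 6207 in liver, against 13.2 to 18.2 in BAT, and Slc27a1, a fatty acid transport protein, had 79.6 to 116 in liver, against 3225 to 4491 in BAT. Lipc, hepatic lipase, had 2424 to 2753 in liver, against 4.85 to 17.2 in BAT. Lpl, lipoprotein lipase, had 45.7 to 81.8 in liver, against 5972 to 7552 in BAT, and Gpihbp1, which holds that lipase on the capillary wall, had 2.8 to 18.9, against 1295 to 1839. Mat1a and Mat2a make S-adenosylmethionine; Mat1a had 4906 to 5585 in liver, against 7.41 to 28.2 in BAT, and Mat2a had 258 to 344, against 1042 to 1134. Fbp1 was the liver gene of its step, and Fbp2, its muscle form, had 1.19 to 18.3 in liver, against 145 to 268 in BAT. Gls2, liver glutaminase, had 1465 to 2136 in liver, against 51.4 to 65.7 in BAT. Some pairs did not divide: Gys2 and Pygl, the liver forms of glycogen synthase and glycogen phosphorylase, were both called lower in liver, by -0.91 and -1.36. Their partners Gys1 and Pygb were lower in liver by -3.93 and -2.39. Both members were also called lower in liver for the phosphofructokinases Pfkl and Pfkm (-2.80 and -4.54), the carboxylases Acaca and Acacb (-2.41 and -2.73) and the ATP carriers Slc25a5 and Slc25a4 (-0.59 and -4.58). Cox8a, the widespread form of the subunit that Cox8b replaces, had 3369 to 3883 in liver, against 8129 to 10618 in BAT. Cox6a2, the muscle form of another subunit, was not tested because it was low on 7 of the 8 arrays; it had 4.02 to 13.1 in liver, against 13.1, 7.55, 1.39 and 978 in BAT, with the high value in animal 5.

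**Figure D3:**
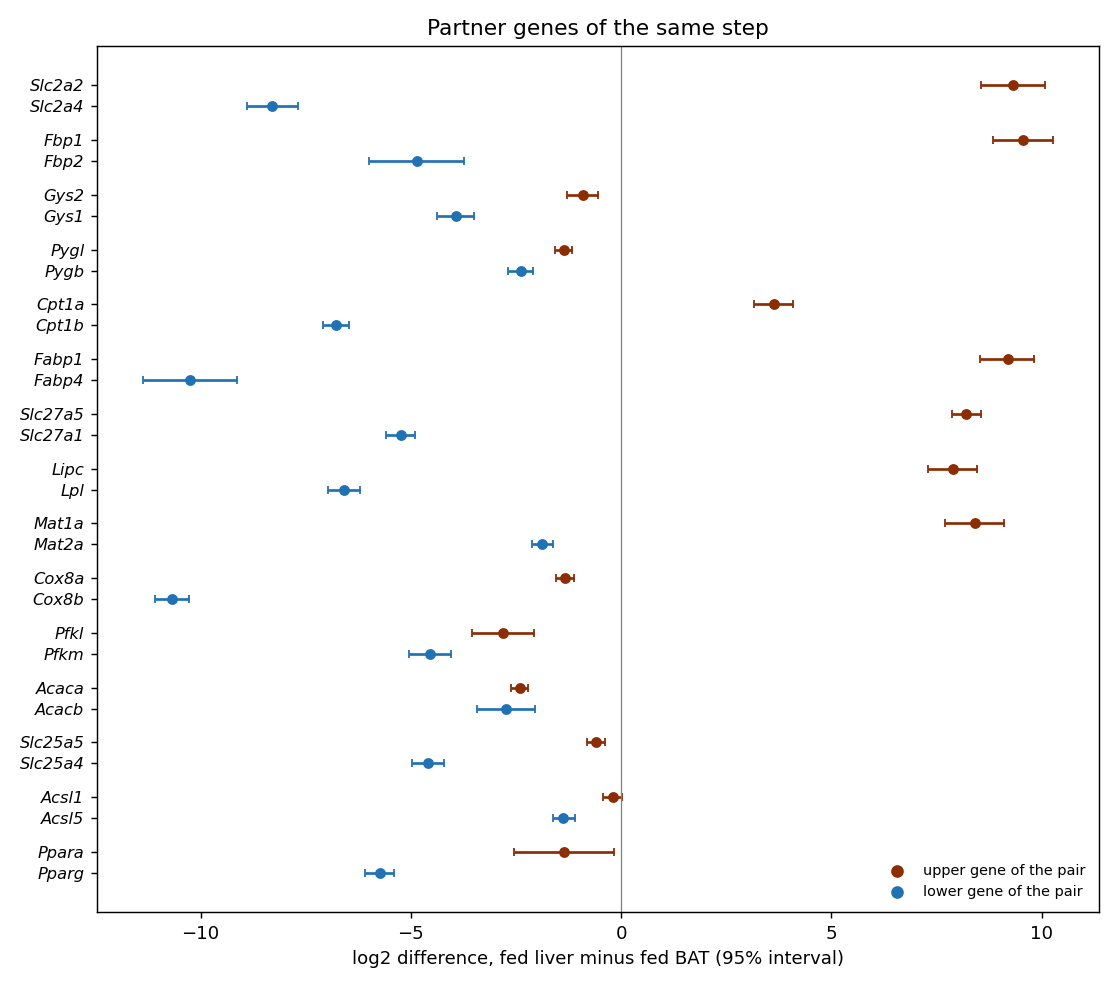
Log2 differences (fed liver minus fed BAT) with 95% intervals for the 15 pairs of genes that serve a like step and have both partners tested, from 4 arrays per tissue. In 7 pairs (glucose transport, fructose bisphosphatase, carnitine transfer, fatty acid binding, fatty acid transport, lipoprotein hydrolysis and S-adenosylmethionine synthesis) the partners lie on opposite sides of 0, and in 8 (glycogen synthase, glycogen phosphorylase, cytochrome oxidase subunit 8, phosphofructokinase, acetyl-CoA carboxylase, ATP carrier, acyl-CoA synthetase and PPAR) both lie below it, with the interval of Acsl1 reaching 0.03.

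Fatty acid synthesis was present in both tissues, with most genes higher in BAT. Of 20 tested genes, 5 were called higher in liver and 13 lower, beside 24.4% and 40.3% of all genes tested. The count higher in liver was thus near the share of all genes. The median was -1.24. Fasn, fatty acid synthase (named, with Acly, Dgat1 and Dgat2, for its role and after the values were seen), had 2467, 4524, 3304 and 4586 in liver, against 9396, 10880, 11591 and 10074 in BAT (-1.53 ± 0.17; limma adjusted p = 9.34e-06). Acly, ATP citrate lyase, had 3582 to 5083 in liver, against 6859 to 8553 in BAT. Acaca, the acetyl-CoA carboxylase that supplies malonyl-CoA for synthesis, had 1091, 1215, 1340 and 1211 in liver, against 5935, 6511, 6858 and 6592 in BAT (-2.41 ± 0.09; limma adjusted p = 5.54e-10). Acly and Acaca were bright in liver and brighter still in BAT. Acacb, the carboxylase tied to mitochondrial control, had 13.8 to 29.5 in liver, against 95 to 249 in BAT. Me1, malic enzyme, had 550 to 814 in liver, against 6674 to 8319 in BAT. Scd2, a stearoyl-CoA desaturase, had 66.1 to 95.3 in liver, against 1048 to 1284 in BAT. The genes higher in liver were led by those that make polyunsaturated fatty acids. Elovl2, an elongase of long polyunsaturated chains, had 483 to 693 in liver, against 1.73 to 13.9 in BAT. The desaturases Fads2 and Fads1 had 1305 to 1665 and 2777 to 3644 in liver, against 31.4 to 41.5 and 256 to 407 in BAT. Srebf1, the factor that drives the lipogenic genes, had 3028, 3217, 3688 and 3042 in liver, against 1790, 2003, 1657 and 2212 in BAT (0.76 ± 0.11; limma adjusted p = 7.76e-05).

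Of 11 tested genes of triglyceride synthesis, 9 were called lower in liver and 2 higher, with a median of -1.52. Agpat2, the acyltransferase of adipocytes, had 736 to 899 in liver, against 7106 to 8092 in BAT. Dgat1 and Dgat2 catalyse the last step; Dgat1 had 301 to 437 in liver, against 2512 to 2811 in BAT, and Dgat2 had 2704 to 3414, against 5887 to 7337. The lipins, which remove phosphate from phosphatidic acid, divided by member. Lpin1 had 273, 305, 296 and 291 in liver, against 2359, 2970, 2846 and 2657 in BAT. Lpin2 and Lpin3 were the exceptions of the list, called higher in liver by 1.05 and 0.95.

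Cholesterol synthesis went the other way. Of 18 tested genes, 13 were called higher in liver and 1 lower, beside 24.4% and 40.3% of all genes tested. The median was 1.15. Cyp51, lanosterol demethylase, had 2935, 4464, 2529 and 4744 in liver, against 554, 620, 765 and 654 in BAT (2.46 ± 0.19; limma adjusted p = 3.55e-07). The livers of animals 2 and 5 were the higher ones. Tm7sf2, a sterol reductase, had 883 to 1622 in liver, against 46.4 to 77.2 in BAT. Ebp, a sterol isomerase, had 1480 to 1836, against 112 to 179, and Msmo1, a sterol methyl oxidase, had 1647 to 2748, against 284 to 388. Insig1, which holds back the activation of SREBP, was the gene called lower in liver, with 1889 to 2965 in liver, against 3688 to 4537 in BAT.

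Of 8 tested genes of the pentose phosphate pathway and NADPH supply, 7 were called lower in liver and 1 higher, with a median of -2.43. Pgd, which makes NADPH from 6-phosphogluconate, had 673 to 838 in liver, against 4526 to 5204 in BAT. Taldo1, transaldolase, had 749 to 1137, against 4884 to 6747, and Rpia, ribose 5-phosphate isomerase, had 166 to 194, against 1052 to 1427. Idh1, cytosolic isocitrate dehydrogenase, was the exception, with 3659 to 4907 in liver, against 1438 to 1884 in BAT; of its 2 probe sets 1 had this direction, and the call ended with the mean of both.

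The oxidative genes of mitochondria were higher in BAT almost throughout. Of 18 tested genes of mitochondrial fatty acid oxidation, 17 were called lower in liver, with a median of -1.27, and the 1 called higher was Cpt1a. After Cpt1b the largest was Slc25a20, the carnitine carrier of the inner membrane, with 583 to 693 in liver, against 2439 to 3907 in BAT. Hadhb, a subunit of the trifunctional protein, had 2144, 1849, 2025 and 2097 in liver, against 8132, 8002, 9690 and 7659 in BAT (-2.04 ± 0.10; limma adjusted p = 3.27e-09). Etfdh, which passes electrons of fatty acid oxidation to the respiratory chain, had 843 to 955, against 3139 to 3790.

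Of 17 tested genes of the tricarboxylic acid cycle, none was called higher in liver and 16 were called lower, with a median of -1.84. Cs, citrate synthase, had 838, 671, 789 and 579 in liver, against 6834, 6387, 7728 and 6168 in BAT (-3.24 ± 0.13; limma adjusted p = 6.89e-10). Idh3a and Idh3g, subunits of the NAD-dependent isocitrate dehydrogenase, had 124 to 188 and 469 to 571 in liver, against 3598 to 3955 and 4435 to 5348 in BAT. Pdha1, of the pyruvate dehydrogenase complex that feeds the cycle, had 783 to 865, against 6752 to 7671. All 27 tested genes of the respiratory chain and ATP synthase were called lower in liver, with a median of -1.52; with median centring 26 of 27 were. Ndufs1, a core subunit of complex I, had 663 to 963 in liver, against 3508 to 4163 in BAT, and Uqcrc1 of complex III had 1400 to 1642, against 6200 to 7483. Ndufb8 differed most, with 104, 157, 119 and 180 in liver, against 1496, 939, 1366 and 1049 in BAT (-3.10 ± 0.20; limma adjusted p = 5.41e-08). Atp5me, of ATP synthase, varied between the BAT arrays, with 600 to 739 in liver, against 4142, 1744, 1938 and 3769 in BAT.

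Peroxisomal oxidation was the oxidative pathway with a positive median difference (0.81). Of 12 tested genes, 7 were called higher in liver and 3 lower, beside 24.4% and 40.3% of all genes tested. Acox2, an oxidase of bile acid precursors, had 819 to 1484 in liver, against 10.9 to 14.4 in BAT. Ehhadh, the bifunctional enzyme, had 2256, 2366, 2880 and 2179 in liver, against 118, 46.1, 82.9 and 60.4 in BAT (5.02 ± 0.24; limma adjusted p = 3.48e-09). Amacr, a racemase of branched fatty acids, had 2821 to 3991, against 304 to 371. The genes lower in liver were Abcd2, a peroxisomal carrier of very long fatty acids (12.3 to 21.6 in liver, against 137 to 195 in BAT), Pex11a, a peroxisome division factor (108 to 200, against 643 to 906), and Eci2, an isomerase of unsaturated fatty acids (1583 to 1977, against 2745 to 3896).

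Genes common to both tissues were sought among the 4 lipogenic and the 4 oxidative lists by an interval, since a p that misses the threshold does not show equal levels. A gene was counted where the 95% interval of its difference lay within 2-fold either way and all 8 arrays were above the 75th percentile of their probe sets. Of 130 genes tested, 14 met this (10.8%), 7 of 56 lipogenic (12.5%) and 7 of 74 oxidative genes (9.46%), against 20.7% of all genes tested. All 8 arrays were above that percentile at 107 of the 130, and the share of all genes tested that were so was not counted. Most of these pathway genes thus had bright signals in both tissues but at levels that differ.

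**Figure D4:**
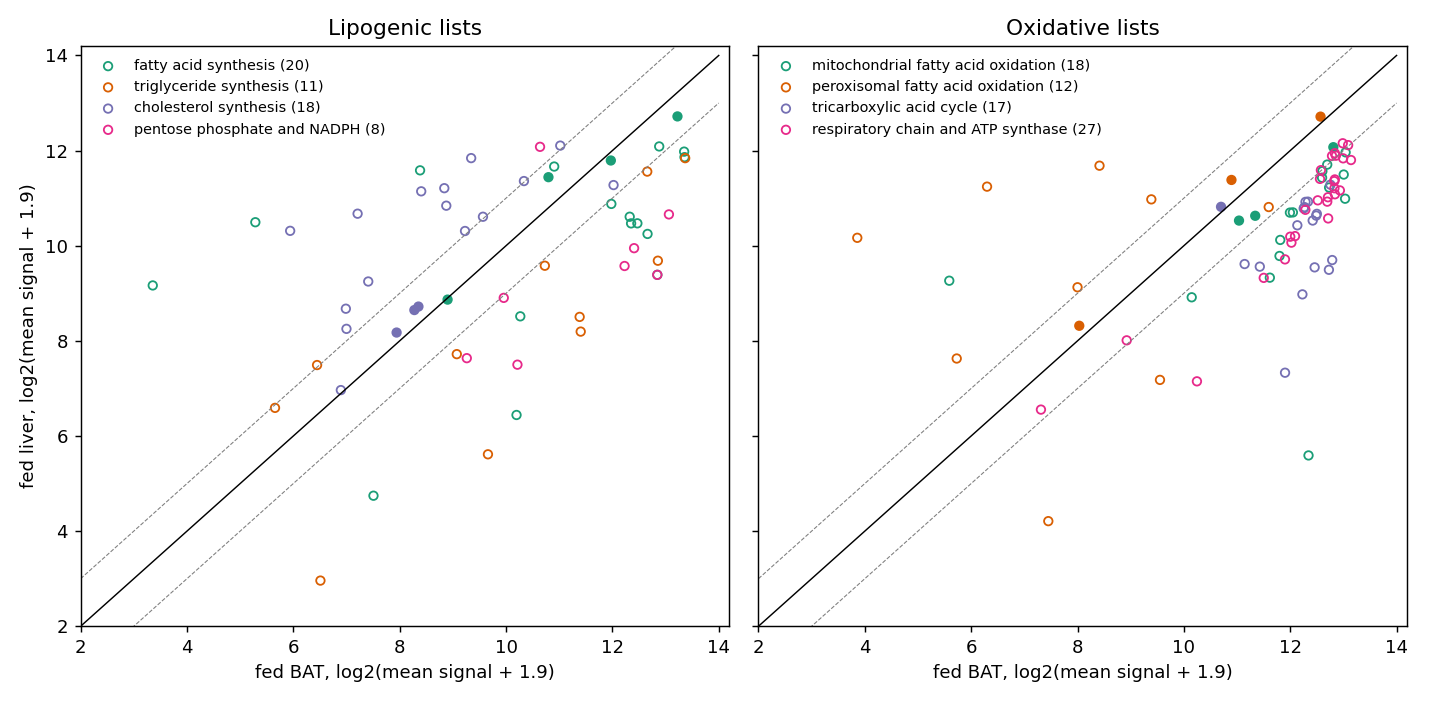
Mean signals of the tested lipogenic (left panel) and oxidative (right panel) genes in fed liver (vertical axis) against fed BAT (horizontal axis), both as log2(mean of 4 arrays + 1.9), 1 point per gene and list, with equality as a solid line and 2-fold as dashed lines. Filled points are the 14 genes within 2-fold by the interval rule; most oxidative genes lie below the lower dashed line, and the cholesterol genes lie mainly above equality.

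The lipogenic genes within 2-fold were Thrsp, Elovl5, Mid1ip1 and Elovl1 of fatty acid synthesis and Pmvk, Srebf2 and Lss of cholesterol synthesis. Thrsp, known as Spot 14, a lipogenic regulator induced by carbohydrate, had 5585, 7095, 6138 and 8129 in liver, against 8476, 9231, 11014 and 9535 in BAT. The arrays did not overlap, and the 95% interval ran from -0.78 to -0.25. Mid1ip1, its relative, which helps acetyl-CoA carboxylase to polymerise, had 3401, 2690, 2501 and 2522 in liver, against 2037, 1700, 1812 and 1564 in BAT, with an interval of 0.37 to 0.91. Elovl5, an elongase of polyunsaturated chains, had 3604, 3304, 3332 and 3932 in liver, against 4061, 4089, 4424 and 3475 in BAT, with overlap and an interval of -0.39 to 0.04. Elovl1, an elongase of saturated chains, had 449, 449, 468 and 495 in liver, against 488, 444, 489 and 483 in BAT. Its interval of -0.26 to 0.19 shows how close to equal the levels could be placed. Srebf2, the factor of the cholesterol genes, had 488, 381, 491 and 235 in liver, against 354, 235, 341 and 303 in BAT, with an interval of -0.17 to 0.83, and 1 of its 2 probe sets had this direction. Pmvk and Lss, enzymes of the mevalonate and the sterol part of the pathway, had intervals of -0.03 to 0.71 and -0.16 to 0.66.

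The oxidative genes within 2-fold were Acaa2, Cpt2 and Echs1 of mitochondria, Scp2, Hsd17b4 and Abcd3 of peroxisomes and Suclg2 of the tricarboxylic acid cycle. Cpt2, the inner-membrane partner of the divided Cpt1 genes, had 1570, 1444, 1499 and 1813 in liver, against 2448, 2660, 2610 and 2654 in BAT (-0.72 ± 0.10; limma adjusted p = 3.72e-05). The arrays did not overlap, but the interval of -0.93 to -0.51 stayed within 2-fold. Acaa2, the thiolase of the last step, had 3947 to 4691 in liver, against 6477 to 8395 in BAT, and Echs1, the enoyl-CoA hydratase, had 1178 to 1666, against 1912 to 2273. Hsd17b4, the peroxisomal bifunctional protein of branched chains and bile acids, had 2621, 2688, 2776 and 2587 in liver, against 1922, 1796, 1983 and 1906 in BAT, with an interval of 0.31 to 0.67. Scp2, a thiolase and sterol carrier, had 7212, 6506, 6362 and 6783 in liver, against 5761, 5517, 7404 and 5630 in BAT, and the BAT array of animal 4 reached the liver values. Abcd3, a peroxisomal membrane carrier, had 383, 321, 263 and 302, against 315, 246, 215 and 262. Suclg2, the GTP-forming subunit of succinyl-CoA ligase, had 1212, 1777, 2262 and 1962 in liver, against 1682, 1703, 1656 and 1598 in BAT, with an interval of -0.27 to 0.44. It was the 1 tested gene of the cycle that was not called lower in liver.

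Fuel entry and glucose use leaned to BAT. Of 21 tested genes of glycolysis and glucose uptake, 18 were called lower in liver and 2 higher, with a median of -1.74. Slc2a2 and Pklr, the liver pyruvate kinase, were the 2; Pklr had 867, 1088, 1513 and 1250 in liver, against 6.1, 7.95, 8.57 and 7.24 in BAT (6.96 ± 0.19; limma adjusted p = 3.1e-11). Aldoa, aldolase A, had 654 to 754 in liver, against 10259 to 13348 in BAT. Hk2, the insulin-induced hexokinase, had 1.95 to 13.9, against 289 to 566, and Ldhb, a lactate dehydrogenase subunit, had 81.8 to 126, against 6066 to 6724. Of 19 tested genes of fatty acid uptake and activation, 8 were called higher in liver and 9 lower. The shares of all genes tested were 24.4% and 40.3%. The list's median of -0.20 turned to 0.13 with median centring. Acsl1, a long-chain acyl-CoA synthetase, had 5857, 6024, 4889 and 6051 in liver, against 6619, 6689, 7294 and 5625 in BAT; it was not called (limma adjusted p = 0.109), with an interval of -0.43 to 0.03, and 2 of its 3 probe sets had this direction. Acsl5, another synthetase, had 1677 to 2059, against 4218 to 6117.

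Ketone body genes were divided by role. Bdh1, which interconverts the ketone bodies, had 1459, 1010, 1320 and 1183 in liver, against 3.12, 12.6, 10.3 and 1.13 in BAT. Oxct1, the enzyme that lets tissues use ketone bodies, had 31.5, 25, 30 and 42.3 in liver, against 1551, 862, 1116 and 951 in BAT (-5.03 ± 0.20; limma adjusted p = 9.79e-10). Acat1, the thiolase shared by both routes, had 1093 to 1386 in liver, against 2579 to 3150 in BAT. Of 10 tested genes of glycogen metabolism, 6 were called lower in liver and 1 higher (3 higher with the tissues paired by animal number). The shares of all genes tested were 40.3% lower and 24.4% higher. The 1 higher was Ppp1r3b, which brings a phosphatase to glycogen, with 1896, 2972, 2477 and 2181 in liver, against 1842, 1710, 1926 and 1540 in BAT; the arrays overlapped, and the call (0.43, limma adjusted p = 0.0164) ended under 7 of 25 settings. Gyg1, the primer of glycogen, had 333 to 373 in liver, against 943 to 1052 in BAT.

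The labelled tissues matched their defining markers. All 10 hepatocyte markers were called higher in liver, with a mean log2 level of 12.59 to 12.9 on the liver arrays and 4.19 to 4.95 on the BAT arrays. The 5 tested brown adipocyte markers and the 6 tested adipocyte markers were all called lower in liver; the brown adipocyte level was 2.56 to 3.55 in liver and 8.59 to 8.77 in BAT, and the adipocyte level 4.39 to 4.85 in liver and 11.22 to 11.64 in BAT. Markers of cells other than the main ones also differed, beside 24.4% of all genes tested called higher in liver and 40.3% lower. All 10 macrophage markers were called higher in liver (8.55 to 8.98 in liver, 6.39 to 6.95 in BAT), led by Clec4f, a lectin of Kupffer cells, with 982 to 1459 in liver, against 0.687 to 0.902 in BAT. All 3 tested markers of liver sinusoidal endothelium were called higher in liver. Of 7 fibroblast markers, 6 were called lower in liver; Col1a1, a chain of type I collagen, had 47.7 to 146 in liver, against 5576 to 7683 in BAT. Of 7 endothelial markers, 6 were called lower in liver and 1, Kdr, was called higher. The nerve-support gene S100b, which adipocytes also express, had 0.366 to 13.3 in liver, against 744 to 1488 in BAT. The part of these cells in the lists above was not tested.

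Skeletal muscle genes set the BAT array of animal 5 apart. The mean log2 level of 14 muscle markers was 3.15 to 3.44 in liver, against 7.15, 5.52, 4.65 and 11.53 in the BAT of animals 1, 2, 4 and 5. Acta1, skeletal muscle actin, had 0.269 to 1.03 in liver, against 519, 191, 13.9 and 8044 in BAT. Ckm, muscle creatine kinase, had 0.69 to 2.44 in liver, against 154, 1.68, 15.9 and 6904 in BAT, and it was not tested. Pygm, muscle glycogen phosphorylase, had 17.5 to 26.2 in liver, against 45.7, 69.3, 36.4 and 808 in BAT; its call (-2.07 ± 0.76; limma adjusted p = 0.0316) ended under 8 of 25 settings. Of 11 tested muscle markers, 9 were called lower in liver; without the BAT array of animal 5 it was 7, and the median was -1.88 in place of -3.62. The lists that lead this account hardly moved without that array. Respiratory chain genes were then called lower in liver at 27 of 27 (median -1.52), genes of mitochondrial fatty acid oxidation at 17 of 18 (-1.27), of thermogenesis at 15 of 17 (-3.53), and of fatty acid synthesis at 13 of 20 with 5 higher (-1.27).

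The fasted rats, whose arrays are shared with no fed group, gave the same contrast a second time. The fasted arrays were scanned on the same days as the fed arrays of their tissue, so tissue and scan day cannot be told apart there either. Of 863 genes called at least 4-fold higher in fed liver, 845 (97.9%) were called higher in fasted liver than in fasted BAT, and 2 lower; they make up 32.3% of the 2620 genes called higher there. Of 922 called at least 4-fold lower, 901 (97.7%) were called lower in the fasted comparison (21.5% of 4187), and 2 higher. In all, 6807 of 10448 genes were called in the fasted comparison (65.2%). The size of the tissue difference was tested between the states as an interaction, the difference in fasted rats minus that in fed rats, which was called for 1123 genes (10.7%), 546 above 0 (5.23%) and 577 below 0 (5.52%). Within the lists, 12 of 20 genes of fatty acid synthesis and 8 of 18 of mitochondrial fatty acid oxidation were called, but none of 27 of the respiratory chain and 1 of 22 plasma protein genes. Of the tested skeletal muscle markers 8 of 11 were called; the mean log2 level of the 14 muscle markers was 3.02 to 3.66 in fasted liver and 11.87 to 12.30 in fasted BAT, beside 3.15 to 3.44 in fed liver and 4.65 to 11.53 in fed BAT, and its part in the other interactions was not tested.

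Among the genes named above, the interaction was largest below 0 for Pygm, Srebf1, Klf15 and Pklr. Srebf1 averaged 315 ± 101 in fasted liver and 1763 ± 47.9 in fasted BAT (SD, n = 4), so its tissue difference of -2.54 in fasted rats lay on the other side of 0 from the 0.76 in fed rats (interaction -3.30 ± 0.24; limma adjusted p = 2.98e-07). Pklr averaged 238 ± 59.6 in fasted liver and 12.6 ± 6.09 in fasted BAT, with an interaction of -2.83 ± 0.40 (limma adjusted p = 0.000219). Klf15 averaged 1622 ± 341 in fasted liver and 887 ± 90.9 in fasted BAT (interaction -2.86 ± 0.41; limma adjusted p = 0.000249), so BAT was near the liver level in fasted rats alone. Pygm had an interaction of -4.68 ± 0.97 (limma adjusted p = 0.00456); it is a muscle gene and moved with the muscle markers given above. Above 0 stood Pex11a, Cpt1a, Fgf21 and Cyp3a2. Pex11a averaged 824 ± 138 in fasted liver and 560 ± 33.3 in fasted BAT, against the lower liver level in fed rats, with an interaction of 2.95 ± 0.24 (limma adjusted p = 1.18e-06). Cpt1a averaged 5375 ± 1089 in fasted liver and 94 ± 15 in fasted BAT (interaction 2.17 ± 0.28; limma adjusted p = 9.62e-05). Fgf21 (1.95, limma adjusted p = 0.0254) and Cyp3a2 (1.77, limma adjusted p = 0.0487) rest on dim BAT signals, 7.75 ± 3.22 and 1.54 ± 1.51 in fasted BAT, and their calls ended under 7 of 23 and 20 of 24 other settings.

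**Figure D5:**
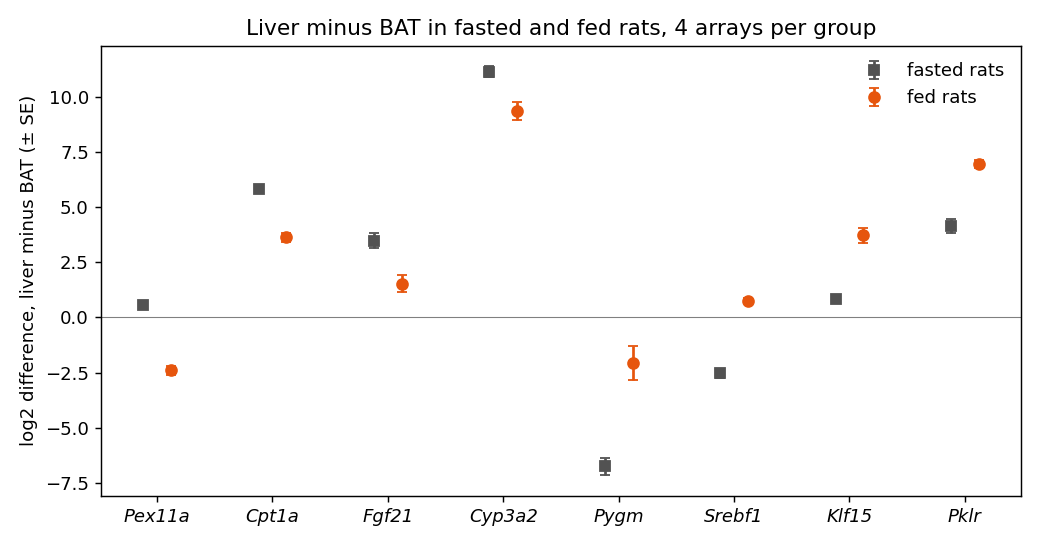
Log2 difference of liver minus BAT (± SE, 4 arrays per group) in fasted rats (squares, left) and fed rats (circles, right) for the 8 named genes with the largest interactions. Pex11a lies above 0 in fasted rats and below 0 in fed rats, Srebf1 lies below 0 in fasted rats and above 0 in fed rats, and the other 6 keep their side.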

How the data were processed

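Per the labels' protocols, 2 µg of total RNA per sample was turned into biotinylated cRNA. Each deposited value is the linear intensity of a probe set, computed by the authors with MAS5 per the submitters' processing notes (version not given in the sources used here). Their overall level differed between arrays. From here on everything was computed: each array was scaled to a 2% trimmed mean of 129 over all probe sets, and log2(signal + 1.9) was taken, 1.9 being the 10th percentile of all signals. Control probe sets (57 of 31099) were left out. Of the remaining 31042, 20826 had 1 gene symbol, 436 several and 9780 none here. Each of 14217 genes is represented by its brightest probe set on the 8 arrays, and genes with a mean log2 signal above the 40th percentile of probe sets were tested. Fed liver and fed BAT, 4 arrays each, were compared with limma 3.58.1 in R 4.3.3 (mean-variance trend, two-sided, Benjamini-Hochberg over all genes tested). The interaction used the 16 fed and fasted arrays of both tissues with the same genes and probe sets. The fits were tested on simulated data. Promoters came from RefSeq tables (GRCr8); their coordinates are not those of the array design.

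Named genes are the 10 largest differences each way among called genes without overlap, the partner genes, up to 4 called members each way of each list, up to 4 members within 2-fold of each lipogenic or oxidative list, up to 2 markers per cell type, and the 4 largest interactions each way among these; others were added after their values were seen. The members, lists and rules were chosen with earlier results of these data known. Signals are given per array or as mean ± SD and differences ± SE; the number of arrays limits the precision, and p-values measure the spread between animals. Deviations of same-numbered liver and BAT arrays from their group means correlated at 0.14, 0.10, 0.05 and 0.06, and the replicate block is an alternative. Different-numbered pairs from the same round of scanning (first or second day of their tissue) correlated at 0.10, 0.03, -0.04 and 0.07. Every same-numbered pair also shared its round, so these values do not settle whether equal numbers mark the same rat. Each tissue was scanned on 2 days, animals 2 and 5 before animals 1 and 4, and no day was shared between the tissues. The ratio of 3' to 5' actin probe sets was 1.19 to 2.00 in liver and 1.05 to 1.93 in BAT (log2); that of Gapdh was 0.29 to 0.60 in liver and 0.23 to 0.28 in BAT, without overlap, and its part in the results was not tested. Alternatives were the normalization, pseudocount, filter, probe set rule, all 24 arrays in 1 model, the trend, and each replicate left out.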

Additional observations from a re-analysis of the deposited data

Results flagged for a closer look

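The difference between liver and BAT itself differed between fasted and fed rats, by a test of the interaction, for the 8 genes with the largest such values among those named. On the log2 scale the interaction, the tissue difference in fasted minus fed rats, was 2.95 for Pex11a, 2.17 for Cpt1a, 1.95 for Fgf21 and 1.77 for Cyp3a2, and -4.68 for Pygm, -3.30 for Srebf1, -2.86 for Klf15 and -2.83 for Pklr. For Cyp3a2 the change lies in BAT signals at the floor (1.54 ± 1.51 in fasted BAT and 10 ± 6.53 in fed BAT).

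In 20 of 348 checks (174 named genes in 2 tissues), 1 of the 4 arrays stood apart from the other 3 by more than Dixon's 95% criterion; this is 5.75%, and chance alone flags about 1 in 20. In liver, animal 1 was lowest for Acacb (13.8, the others 27.2 to 29.5), Acox3 (89.5, the others 219 to 251) and Prx (24.6, the others 35.6 to 37.6). Animal 2 was lowest for Pfkfb3 (1.13, the others 13.3 to 18.1). Animal 4 was lowest for Acsl1 (4889, the others 5857 to 6051) and highest for Klf15 (1705, the others 854 to 959). Animal 5 was highest for Atp5me (739, the others 600 to 610) and lowest for Gpihbp1 (2.8, the others 14.9 to 18.9). In BAT, animal 1 was lowest for Mogat2 (64.9, the others 92.9 to 99.9). Animal 2 was highest for Cyp2a2 (2.76) and Mat2a (1134) and lowest for Elovl1 (444) and Pparg (1587). Animal 4 was highest for Agpat2 (8092), Cidea (10569), Mdh1 (6846), Scp2 (7404) and Slc25a5 (7353). Animal 5 was highest for Apob (3.57, the others 1.93 to 1.96) and lowest for Cox7a1 (71, the others 88.7 to 89.2). The skeletal muscle genes of that array are described above.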

How the results depend on the processing

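The counts of genes were recomputed under 13 other settings, and with arrays or animals left out in turn in 12 further settings (8 and 16 for the interaction). The count called higher in liver (2550) ran from 2193 to 3428 and the count called lower (4215) from 2811 to 4570, both with median centring at an end; the count at least 4-fold higher (863) ran from 689 to 1010. The count at least 4-fold lower (922) was 605 with a stricter filter, the 60th in place of the 40th percentile, which tests fewer genes, and otherwise stayed within 1.5 times. The 14 genes within 2-fold were 12 to 20, and the interaction count (1123) was 783 with median centring and 1631 with scan day as a random block. With arrays left out the ranges were 2301 to 2468 higher, 3737 to 4087 lower, 847 to 876 and 894 to 957 at least 4-fold, 12 to 20 within 2-fold and 832 to 1048 for the interaction. With the replicate block, which pairs the tissues by animal number, 2580 genes were called higher and 4263 lower, 863 and 924 at least 4-fold, and 1148 in the interaction; among the named genes it changed the calls of Hbb, Alas2 and the interaction of Cyp3a2 (limma adjusted p = 0.0523) and no other. Over 172 named genes and 25 settings, none of 4285 values changed direction with a call, 51 calls ended and 34 arose; 151 genes kept their side of the threshold throughout. The calls that ended belonged to Ppara, Car3, Pygm, Ppp1r3b, Cebpa, Echs1, Idh1, Krt19, Slc25a5 and Thrsp. The causes were not tested. Comparisons within a shared scan day, planned at first, could not be made because no day held both tissues; scan day as a random block, animals 1 and 4 alone, animals 2 and 5 alone and the left-out arrays of the interaction were chosen after seeing the data. Signals near the floor limit the sizes of the largest differences.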

Other observations

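Many markers of less abundant cells were too dim to test, and the calls among those tested varied by cell type. The cholangiocyte level (5 genes, mean log2) was 4.06 to 5.46 in liver and 2.78 to 3.16 in BAT, and both tested markers were called higher in liver; Epcam, an epithelial adhesion gene of bile ducts, had 81.1 to 146 in liver, against 0.512 to 5.35 in BAT. Of 5 markers of hepatic stellate cells, 3 were called higher and 2 lower in liver, beside 24.4% and 40.3% of all genes tested. Reln, a matrix protein of stellate cells, had 437 to 641 in liver, against 11.3 to 33.5 in BAT, while Rgs5, also a gene of pericytes, had 34.2 to 37.3 in liver, against 335 to 434 in BAT. Of T and NK cell markers, 2 of 8 were bright enough to test, and neither was called; of 3 B cell markers 1 was tested, Cd74 (-0.25, limma adjusted p = 0.0902), and it was not called. The peripheral nerve level was 3.32 to 3.69 in liver and 5.89 to 6.39 in BAT, and 1 of 2 tested markers was called lower in liver.

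The red blood cell level was 6.13 to 7.17 in liver and 6.01 to 7.22 in BAT, and neither tested marker was called. Hbb, beta globin, had 3070, 3575, 4253 and 3986 in liver, against 3730, 4316, 7704 and 5191 in BAT (-0.45, limma adjusted p = 0.0604). Alas2, the heme synthesis gene of red cells, had 67.6, 77.9, 119 and 82.8 in liver, against 76.8, 126, 224 and 148 in BAT (-0.65, limma adjusted p = 0.0685). Animal 4 was the highest in both tissues for both genes. With the replicate block, which compares the tissues within each animal, both were called, at limma adjusted p = 0.00832 for Hbb and 0.00833 for Alas2.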
